A study of Homo sapiens with 6 samples.

Results

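The ligands of the tumour necrosis factor (TNF) superfamily and their receptors were described in L3.6pl cells, an established line from human pancreatic cancer. Members were the rows whose symbol begins with TNFSF (ligands) or TNFRSF (receptors) followed by a number and at most 1 letter. The rule found 32 of 23273 rows, 11 ligands and 21 receptors, and used no measured value. The 3 parental libraries carry wild-type ARID1A, and the 3 ARID1A-deficient libraries come from cells titled as an ARID1A knockout. ARID1A encodes a DNA-binding part of SWI/SNF, a complex that remodels chromatin. All 6 samples were grown in medium with 10% fetal calf serum and received no drug. The labels name no clones and no sample in which ARID1A was restored, so ARID1A loss and other differences between these cells cannot be told apart. Extraction was from triplicate samples, and the labels do not say whether they were separate cultures, so p-values measure only the spread between these libraries, which may be technical.

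Ligands of this superfamily are mostly trimers held in the cell membrane, from which proteases can release them, and receptors bind them through cysteine-rich repeats. Receptors with an intracellular death domain, such as those for TNF and TRAIL, can start caspase-8 activation, and others bind TRAF adaptors that lead to NF-kB and kinase signalling. Decoy receptors bind a ligand without passing on the death signal. In carcinoma cells the TRAIL receptors are known for their part in apoptosis, whereas many other members are chiefly known from T and B cells.

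Values are in FPKM, which scales fragments to the transcript's length and the library, so levels of different genes can be set side by side. ARID1A itself measured 11.8, 6.76 and 9.42 FPKM in parental libraries 1, 2 and 3, against 3.55, 3.28 and 3.61 FPKM in ARID1A-deficient libraries 1, 2 and 3. The transcript was lower and still measurable in all 3 ARID1A-deficient libraries. Library sums ran from 576084 to 792187 FPKM, and the sources used here do not give total fragments. The spacing of the lowest values put the depth at 0.732 to 1.27 times that of parental library 1, if values were scaled to library totals. The 7 epithelial markers of the pancreatic duct summed to 6296 to 9854 FPKM in parental and 4549 to 5758 FPKM in ARID1A-deficient libraries. Most of that came from KRT7, KRT8, KRT18 and KRT19, and none of the 7 passed the limma test described below. MUC1 alone had the higher mean in ARID1A-deficient libraries, at 15.5 ± 6.81 FPKM in parental and 27.6 ± 6.95 FPKM in ARID1A-deficient ones (SD, n = 3 each), with overlapping groups. Of 12 leukocyte markers, 6 were listed at 0 in every library, among them CD3D, MS4A1 and LST1, and such zeros can be failed estimates. The 12 markers summed to 8.61 to 10.1 FPKM in parental and 6.12 to 7.84 FPKM in ARID1A-deficient libraries, and CD68 made up most of that. Fibroblast markers summed to 20.6 to 24.3 FPKM in parental libraries, mostly from COL1A1. In ARID1A-deficient libraries they summed to 82.6 to 94.7 FPKM, mostly from COL1A1 and COL1A2. COL1A2 measured 0.113, 0.0642 and 0.0985 FPKM in parental and 42.2, 43.1 and 43.9 FPKM in ARID1A-deficient libraries. DCN and LUM were at 0 throughout. The part of these marker differences in the results was not tested.

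TNFSF10, the ligand TRAIL, and the receptors TNFRSF19 and TNFRSF10D rose. TNFSF10 had the largest log2 fold change of the members tested on log2(FPKM + 1), at 1.94, whereas TNFRSF19 had the largest ratio of means, 20.8, and the largest log2 fold change with a pseudocount of 0.1, 3.02 against 2.01 for TNFSF10. TNFRSF21 fell. Of the 32 members, 15 had a mean of at least 0.5 FPKM over the 6 libraries and were tested, 15 were lower than that but above 0 in at least 1 library, and TNFRSF13B and TNFRSF17 were listed at 0 in all. Of the 15 tested, 3 were higher, 1 was lower and 11 did not pass limma at a Benjamini-Hochberg adjusted p of 0.05. Over all 12826 genes tested, 15.9% passed, 7.82% higher and 8.11% lower. That total of 2043 genes became 4079 once parental library 2 was dropped and 1019 once parental library 3 was. Dropping ARID1A-deficient library 1, 2 or 3 left 1275, 1082 or 964 called genes. With any 1 library dropped, the single lower member, TNFRSF21, was called only when that library was parental 2. The members' share of calls is not set against this background with a test. TNFRSF19 reached the minimum only through its ARID1A-deficient values, so it could enter the test only by differing. The median log2 fold change was 0.01 over the 15 members and -0.01 over all genes tested. A log2 fold change is ARID1A-deficient minus parental on log2(FPKM + 1), which understates changes of low genes, and a fold is the ratio of group means in FPKM.

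**Figure D1:**
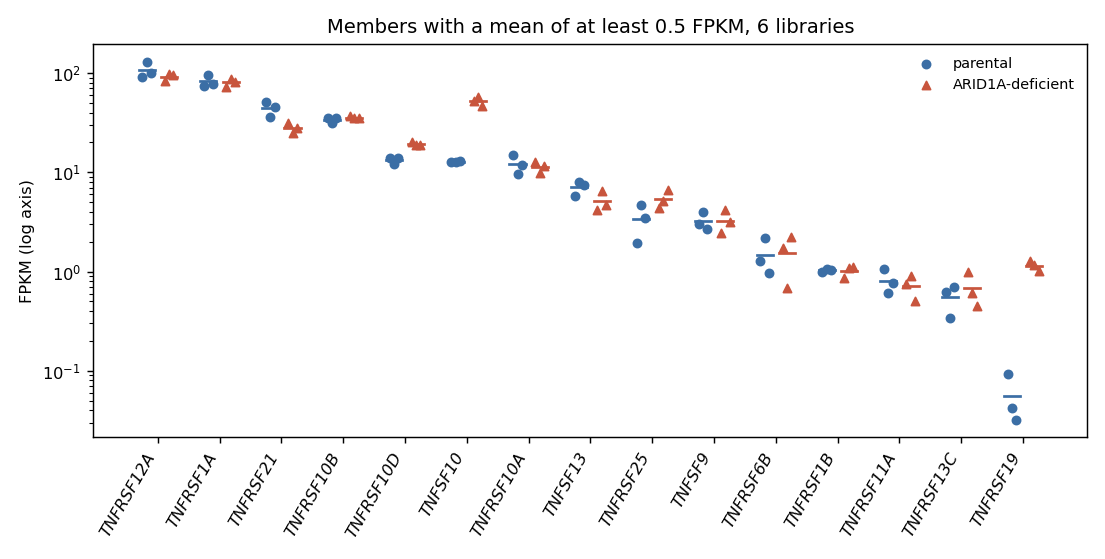
FPKM (log axis) of the 15 members with a mean of at least 0.5 FPKM, ordered by parental mean; each point is 1 library, circles parental and triangles ARID1A-deficient, and bars are group means of 3. TNFSF10 and TNFRSF19 show the widest gaps between groups, and the groups of 11 members overlap.

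Start regions are shown for the called members outside the TNFRSF10 cluster, which leaves out TNFRSF10D, also called. They come from RefSeq (GRCh38.p14), as the 250 bases before the annotated start, 5′ to 3′ on the gene's strand. A RefSeq start region was matched by symbol for 21 of the 32 members. Capitals mark matches, on either strand, to 5 motifs. For AP-1 the letters searched were TGANTCA. For the STAT motif GAS they were TTCNNNGAA. For the GC box, bound by SP1, they were GGGCGG. For the TATA box they were TATAAA. The interferon-stimulated response element (ISRE) was searched as GAAA, then any 2 bases, then GAAA again. No match overlapped another. The windows lie at chr3:172523431-172523680 (minus strand) for TNFSF10, chr13:23570162-23570411 and chr13:23579110-23579359 (plus strand) for the 2 annotated starts of TNFRSF19, and chr6:47309906-47310155 (minus strand) for TNFRSF21.
TNFSF10: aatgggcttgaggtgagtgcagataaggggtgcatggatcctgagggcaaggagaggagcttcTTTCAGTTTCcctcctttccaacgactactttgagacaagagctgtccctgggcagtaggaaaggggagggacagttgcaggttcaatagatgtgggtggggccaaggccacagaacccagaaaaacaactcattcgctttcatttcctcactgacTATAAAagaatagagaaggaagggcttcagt
TNFRSF19, first start: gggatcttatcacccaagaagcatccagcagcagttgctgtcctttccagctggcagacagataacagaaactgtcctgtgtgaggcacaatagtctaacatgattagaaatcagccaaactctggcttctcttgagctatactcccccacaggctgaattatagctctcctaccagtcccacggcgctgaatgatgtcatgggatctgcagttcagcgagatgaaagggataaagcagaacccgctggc
TNFRSF19, second start: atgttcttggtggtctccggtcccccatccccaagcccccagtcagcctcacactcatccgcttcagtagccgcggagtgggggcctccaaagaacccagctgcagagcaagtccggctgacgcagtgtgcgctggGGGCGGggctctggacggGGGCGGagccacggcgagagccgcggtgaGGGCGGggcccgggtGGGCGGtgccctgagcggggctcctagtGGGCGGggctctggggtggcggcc
TNFRSF21: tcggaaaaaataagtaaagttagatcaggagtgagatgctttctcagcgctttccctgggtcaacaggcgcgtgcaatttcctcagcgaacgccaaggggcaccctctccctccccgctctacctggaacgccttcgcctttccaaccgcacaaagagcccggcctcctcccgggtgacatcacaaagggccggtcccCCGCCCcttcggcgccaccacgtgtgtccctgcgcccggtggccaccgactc

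The TNFSF10 window held an ISRE match that begins 187 bases before the start and a TATA match that begins 31 bases before it. Of 35116 windows of this length in the table, 3.02% held an ISRE match and 10.7% a TATA match. The first TNFRSF19 window held none of the 5 motifs. The second held 5 GC boxes and TNFRSF21 held 1, a motif found in 42.6% of all windows. None of the 4 windows held an AP-1 or GAS match, which 6.57% of all windows held for each of these motifs. GC content was 49.6% in the TNFSF10 window and in the first TNFRSF19 window. It was 72.4% in the second TNFRSF19 window and 62% in that of TNFRSF21, with a median of 58% over all windows. A match shows letters, not binding.

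TNFSF10 measured 12.6, 12.7 and 12.9 FPKM in parental cells and 52.3, 56.7 and 46.3 FPKM in ARID1A-deficient cells. The parental values lay within 1 FPKM of each other, and every ARID1A-deficient value was above all of them. In such bulk libraries, a larger share of cells with the transcript and more transcript per cell cannot be told apart. From means of 12.8 ± 0.159 to 51.8 ± 5.26 FPKM (SD, n = 3 each), the increase was 4.06-fold (log2 fold change 1.94, SE 0.09, limma adjusted p = 4.01e-05). The call held without any single library, with a highest adjusted p of 0.000704 from limma. The 40 nearest tested genes, 20 on each side, had a median log2 fold change of 0.08. In the order of member levels TNFSF10 stood 6th in parental and 3rd in ARID1A-deficient cells.

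TRAIL binds 4 membrane receptors that share a gene cluster and much of their sequence, so the split of fragments between them is uncertain. TNFRSF10B, the death receptor DR5, was the highest of them, at 35, 31.5 and 35.2 FPKM in parental cells and 36.7, 34.9 and 35 FPKM in ARID1A-deficient cells. Its groups overlapped, with a log2 fold change of 0.07 (95% interval -0.13 to 0.27, limma adjusted p = 0.651). TNFRSF10A, the death receptor DR4, measured 15.1, 9.67 and 11.8 FPKM against 12.6, 9.93 and 11.5 FPKM. These values also overlapped (log2 fold change -0.08, 95% interval -0.47 to 0.31, limma adjusted p = 0.796), and parental libraries 1 and 2 were the highest and lowest of the 6.

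TNFRSF10D, the decoy DcR2 with a truncated death domain, measured 13.9, 12.1 and 13.8 FPKM in parental cells and 20.2, 18.6 and 18.9 FPKM in ARID1A-deficient cells. All 3 ARID1A-deficient values were above all parental ones. The rise was 1.45-fold (log2 fold change 0.51, SE 0.09, limma adjusted p = 0.0100). The call ended without ARID1A-deficient library 3 (limma adjusted p = 0.0524). TNFRSF10C, the lipid-anchored decoy DcR1, was listed at 0, 0 and 0.0705 FPKM in parental and at 0.0501, 0.0906 and 0.0841 FPKM in ARID1A-deficient libraries, which is too low for the test.

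As a share of the summed FPKM of TNFRSF10A, TNFRSF10B and TNFRSF10D, TNFRSF10D made up 21.7%, 22.6% and 22.8% in parental and 29.1%, 29.4% and 28.9% in ARID1A-deficient libraries. The groups did not overlap, and the mean shares were 22.4% ± 0.565 and 29.1% ± 0.248 (SD, n = 3 each), 6.71 percentage points apart. The exact permutation test (two-sided) gave p = 0.1, the smallest that 3 libraries against 3 allow. This share was chosen after the values were seen, when TNFRSF10D was known to differ, so the p-value adds no support to the TNFRSF10D call. The sum of the 3 receptors was 64, 53.2 and 60.8 FPKM in parental cells and 69.4, 63.5 and 65.4 FPKM in ARID1A-deficient cells, so TNFSF10 moved from 0.216 ± 0.0205 to 0.785 ± 0.0967 of that sum (SD, n = 3 each).

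TNFRSF11B, osteoprotegerin, is a secreted decoy for TRAIL and for RANK ligand. It was listed at 0.0611, 0 and 0.0598 FPKM in parental and at 0.695, 0.503 and 0.498 FPKM in ARID1A-deficient libraries. Every ARID1A-deficient value was above every parental value, but its mean lay under the minimum for testing. With no filter on low values it was called higher (limma adjusted p = 0.00216), and no fold is given because 1 library was listed at 0. TNFSF11, the RANK ligand, was listed at 0 in all parental libraries and at 0.103, 0 and 0.123 FPKM in ARID1A-deficient libraries. TNFRSF11A, the receptor RANK, measured 0.807 ± 0.229 and 0.718 ± 0.195 FPKM (SD, n = 3 each), with overlapping groups and a limma adjusted p of 0.774.

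TNFRSF19, also called TROY, is a receptor whose ligand is not settled. It measured 0.0920, 0.0420 and 0.0322 FPKM in parental cells and 1.26, 1.17 and 1.01 FPKM in ARID1A-deficient cells. The lowest ARID1A-deficient value was above every parental value, and the parental values were close to 0. The fold of means was 20.8, imprecise because of those low values (log2 fold change 1.03, SE 0.09, limma adjusted p = 0.000460). With a pseudocount of 0.1 the log2 fold change was 3.02, and the call held without any single library. The 37 nearest tested genes had a median log2 fold change of 0.33, the highest neighbour median among tested members, and the part of that shift in the TNFRSF19 result was not tested.

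TNFRSF21, the death receptor DR6, measured 51, 35.7 and 45.5 FPKM in parental cells and 31.7, 24.7 and 28.1 FPKM in ARID1A-deficient cells. The highest ARID1A-deficient value was below the lowest parental value, which came from library 2. The fall was 1.57-fold, from 44.1 ± 7.75 to 28.2 ± 3.54 FPKM (SD, n = 3 each; log2 fold change -0.62, SE 0.15, limma adjusted p = 0.0379). The call was near the threshold. It ended when any single library other than parental 2 was left out (limma adjusted p = 0.0605 to 0.138), and without parental library 2 the limma adjusted p was 0.00192. It also ended with no filter on low values (limma adjusted p = 0.0508), without trend and robust moderation (limma adjusted p = 0.0511) and with quantile normalization (limma adjusted p = 0.0678). The median of its 40 neighbours was -0.01.

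**Figure D2:**
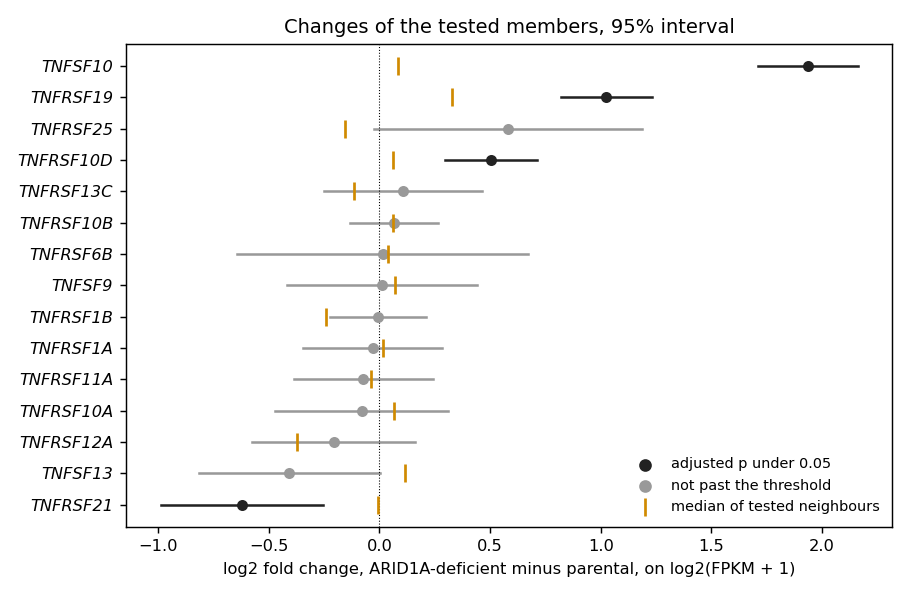
Log2 fold change (ARID1A-deficient minus parental, on log2(FPKM + 1)) with its 95% interval for the 15 tested members; dark points passed limma at an adjusted p of 0.05, grey points did not, and vertical ticks are the median of the nearest tested genes. TNFSF10 at 1.94 and TNFRSF21 at -0.62 lie at the ends, and the neighbours of TNFRSF19 and TNFRSF12A have medians of 0.33 and -0.37.

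The receptors for TNF itself were measured in every library. TNFRSF1A, the death domain receptor for TNF, measured 74, 95 and 78.3 FPKM in parental cells and 72.6, 86.9 and 81.8 FPKM in ARID1A-deficient cells. TNFRSF1B, the TNF receptor that binds TRAF2 and has no death domain, measured 0.981, 1.06 and 1.03 FPKM against 0.858, 1.09 and 1.11 FPKM. Both overlapped between groups, with log2 fold changes of -0.03 (95% interval -0.35 to 0.28) and -0.01 (95% interval -0.22 to 0.21) and limma adjusted p = 0.911 and 0.976. TNFRSF1A was thus about 80 FPKM in either group (82.4 ± 11.1 and 80.4 ± 7.24, SD, n = 3 each), and TNFRSF1B was 1.02 FPKM in both means. The ligand genes TNF, LTA and LTB were listed at 0 in all 6 libraries. TUBB, a tubulin gene of nearly all cells, and TAP1 were listed at 0 as well, so these zeros can be failed estimates.

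TNFRSF12A, or Fn14, the receptor for the cytokine TWEAK, had the highest level of all members in both groups. It measured 92, 130 and 99.4 FPKM in parental cells and 82.8, 97.8 and 94.7 FPKM in ARID1A-deficient cells. Parental library 2 was the highest, and the groups overlapped (log2 fold change -0.21, 95% interval -0.58 to 0.16, limma adjusted p = 0.438). Its 40 neighbours had a median log2 fold change of -0.37, further from 0 than its own. TNFSF12, which encodes TWEAK, was listed at 0 in all parental libraries and at 0.0434, 0 and 0.0694 FPKM in ARID1A-deficient libraries. TNFSF12 and TNFSF13 both overlap a combined TNFSF12-TNFSF13 gene on the same strand. The row of that combined gene was listed at 0 in all 6 libraries, and how fragments were assigned among these genes is not known.

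TNFRSF25, or DR3, a death domain receptor, and TNFSF15, its ligand TL1A, were both detected. TNFRSF25 measured 1.95, 4.71 and 3.45 FPKM in parental cells and 4.33, 5.15 and 6.66 FPKM in ARID1A-deficient cells. Parental library 2 lay among the ARID1A-deficient values, and the difference did not pass (log2 fold change 0.58, 95% interval -0.02 to 1.19, limma adjusted p = 0.186). Without parental library 2 it passed (log2 fold change 0.80, limma adjusted p = 0.0259), in a fit that called 4079 of 12826 genes. It did not pass in the other 5 fits with 1 library left out (limma adjusted p up to 0.456). TNFRSF25 overlaps ESPN on the other strand and PLEKHG5, and this library kit does not separate strands. TNFRSF10B and TNFRSF12A overlap RHOBTB2 and CLDN6, respectively, on the other strand.

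TNFSF15 measured 0.106, 0.0516 and 0.119 FPKM in parental cells and 0.639, 0.638 and 0.570 FPKM in ARID1A-deficient cells. All ARID1A-deficient values were above all parental ones, at a ratio of means of 6.70, although the mean was too low for the main test. It was called higher with no filter on low values (limma adjusted p = 0.000787). TNFRSF6B, the secreted decoy DcR3 that binds TL1A, LIGHT and FAS ligand, measured 1.27, 2.2 and 0.964 FPKM against 1.72, 0.684 and 2.21 FPKM. Its groups overlapped with a wide spread (log2 fold change 0.01, 95% interval -0.64 to 0.67, limma adjusted p = 0.982), and it overlaps a combined RTEL1-TNFRSF6B gene.

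TNFRSF14, or HVEM, binds LIGHT, the product of TNFSF14. All parental values were listed at 0, and the ARID1A-deficient values were 0.649, 0.478 and 0.492 FPKM. It was called higher with no filter on low values (limma adjusted p = 0.000804). TNFSF14 was listed at 0 in all parental libraries and at 0.0199, 0 and 0.0318 FPKM in ARID1A-deficient libraries. With that filter removed, 17832 genes were tested and 6.97% were called higher, a share over genes of all levels and not over low genes alone. The 15 members under the minimum then gave 3 called higher (TNFRSF11B, TNFRSF14 and TNFSF15) and 0 lower in limma, where 1 more, TNFRSF9, was higher at an unadjusted p of 0.00985 (limma adjusted p = 0.0663) and 0 were lower at an unadjusted p under 0.05.

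**Figure D3:**
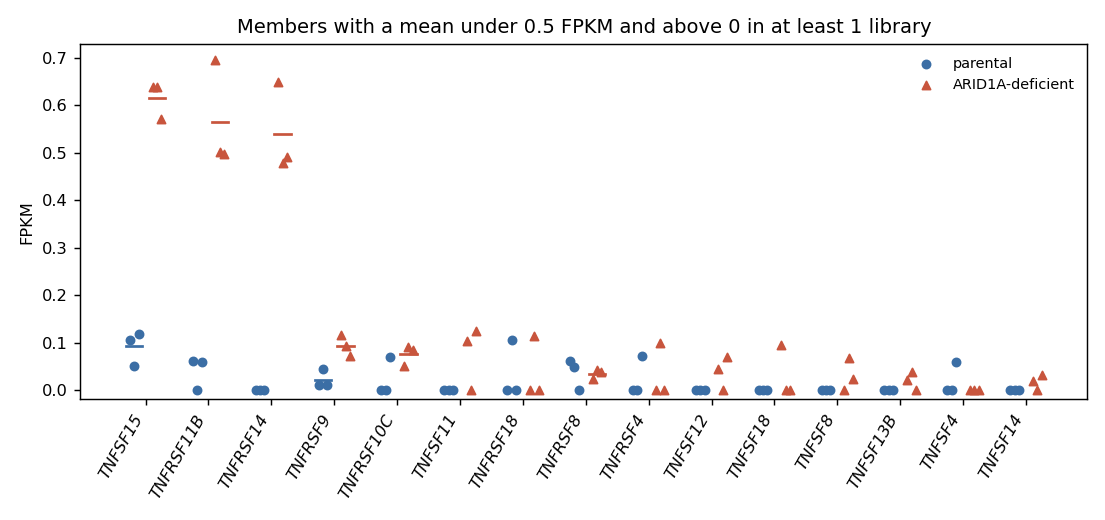
FPKM (linear axis) of the 15 members under the minimum mean of 0.5 FPKM and above 0 in at least 1 library; each point is 1 library, circles parental and triangles ARID1A-deficient, with bars for means of groups in which no library is at 0. TNFSF15, TNFRSF11B and TNFRSF14 lie between 0.478 and 0.695 FPKM in ARID1A-deficient libraries and at or under 0.119 FPKM in parental ones.

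TNFSF9, the ligand of CD137, a costimulatory receptor of T cells, measured 3.0, 3.95 and 2.67 FPKM in parental cells and 2.46, 4.18 and 3.15 FPKM in ARID1A-deficient cells. These overlapped (log2 fold change 0.01, 95% interval -0.42 to 0.44, limma adjusted p = 0.981). TNFRSF9, its receptor CD137, measured 0.0113, 0.0433 and 0.0111 FPKM against 0.115, 0.0931 and 0.0709 FPKM, so the groups did not overlap at these very low levels. TNFRSF4 and TNFSF4 (OX40 and its ligand), TNFRSF18 and TNFSF18 (GITR and its ligand), and TNFRSF8 and TNFSF8 (CD30 and its ligand) stayed at or under 0.114 FPKM in every library. TNFRSF8 was above 0 in 5 libraries, at 0.0607, 0.0480 and 0 FPKM in parental and 0.0238, 0.0416 and 0.0381 FPKM in ARID1A-deficient ones. Of the 15 members under the minimum and above 0 somewhere, 7 were listed at 0 in every parental library and above 0 in at least 1 ARID1A-deficient library, a pattern held by 17.4% of all 5006 such genes. The opposite pattern was held by 11.4% of those genes and by 1 member, TNFSF4, at 0.0585 FPKM in parental library 3 and 0 in the others. These shares were not compared with a test, and all 3 ARID1A-deficient libraries had more genes above 0 (15873 to 16391) than any parental one (15635 to 15852).

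Members that act on B cells were led by TNFSF13, the ligand APRIL. It measured 5.79, 7.97 and 7.45 FPKM in parental cells and 4.19, 6.48 and 4.67 FPKM in ARID1A-deficient cells. ARID1A-deficient library 2 lay above parental library 1, so the groups overlapped, and the difference did not pass (log2 fold change -0.41, 95% interval -0.82 to 0.00062, limma adjusted p = 0.170). TNFSF13 overlaps the combined TNFSF12-TNFSF13 gene on the same strand, and how fragments were assigned between them is not known. TNFSF13B, the ligand BAFF, was listed at 0 throughout the parental libraries and reached at most 0.0372 FPKM in ARID1A-deficient ones. TNFRSF13C, the BAFF receptor, measured 0.557 ± 0.189 and 0.682 ± 0.273 FPKM (SD, n = 3 each; limma adjusted p = 0.693). TNFRSF13B and TNFRSF17, the APRIL and BAFF receptors TACI and BCMA, were at 0 in all 6. The B cell marker MS4A1 was also at 0.

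The groups of 4 of the 15 tested members did not overlap, against 35.3% of all genes tested. They are the 4 members that passed limma. The levels of the tested members ran from 107 ± 19.9 FPKM for TNFRSF12A down to 0.0554 ± 0.0321 FPKM for TNFRSF19 in parental cells (SD, n = 3 each), and 10 members had a mean of at least 3 FPKM.

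Superfamily genes under other symbols were 16, of which 6 were tested and 7 were at 0 in every library. NGFR, a receptor for neurotrophins, fell. It measured 11, 11.5 and 11.5 FPKM in parental cells and 2.95, 2.82 and 3.17 FPKM in ARID1A-deficient cells. The groups were far apart relative to their spread, at a 3.81-fold difference (log2 fold change -1.64, SE 0.09, limma adjusted p = 5.51e-05), and the call held without any single library. The other 5 did not pass and none was higher in limma (0 at an unadjusted p under 0.05). Over all genes tested 8.11% were called lower. FAS, the death receptor for FAS ligand, measured 5.50 ± 0.947 and 4.20 ± 0.836 FPKM, and LTBR, the lymphotoxin beta receptor, 84.8 ± 9.82 and 100 ± 11.1 FPKM (SD, n = 3 each; limma adjusted p = 0.231 and 0.295). EDA, the ligand ectodysplasin A, measured 1.10 ± 0.129 and 0.677 ± 0.129 FPKM (SD, n = 3 each; limma adjusted p = 0.0753). FASLG, CD40LG and CD40 were listed at 0 in every library.

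Among 32 adaptors, kinases and ubiquitin-related genes that act next to these receptors, 30 were tested, 3 rose and 27 did not pass. None was lower in limma, and over all genes tested 7.82% were called higher. At an unadjusted limma p under 0.05, 5 of the list were higher and 4 lower, against 1771 higher and 2010 lower of all 12826 genes tested. BIRC3, the ubiquitin ligase cIAP2 that binds TRAF2, measured 1.75, 1.45 and 1.82 FPKM in parental cells and 9.15, 8.01 and 8.08 FPKM in ARID1A-deficient cells. Every ARID1A-deficient value was more than 4 times the highest parental value, and the means differed 5.02-fold (log2 fold change 1.82, SE 0.10, limma adjusted p = 8.16e-05). RIPK1, a kinase of the TNF receptor complex, rose from 4.78 ± 0.372 to 6.89 ± 0.338 FPKM, or 1.44-fold (SD, n = 3 each; limma adjusted p = 0.0199). MAP3K14, the kinase NIK of the noncanonical NF-kB pathway, rose from 3.76 ± 0.394 to 5.78 ± 0.548 FPKM, or 1.54-fold (SD, n = 3 each; limma adjusted p = 0.0227). The RIPK1 call was lost when parental library 3 or any 1 ARID1A-deficient library was left out (limma adjusted p up to 0.101). The MAP3K14 call was lost when parental library 1, parental library 3, ARID1A-deficient library 2 or ARID1A-deficient library 3 was left out (limma adjusted p up to 0.0986). Leaving out parental library 2 gave 5 higher genes in this list, and leaving out parental library 3, ARID1A-deficient library 2 or ARID1A-deficient library 3 gave 1. TRADD, TRAF2, TRAF3 and FADD, which assemble on the receptors, were not past the threshold in the main fit. The groups of FADD and TRAF3 did not overlap, as for 35.3% of all genes tested, and those of TRADD and TRAF2 did. Without parental library 2, TRADD and FADD were called higher (limma adjusted p = 0.0190 and 0.0265), in a fit that called 4079 of 12826 genes. Neither was called in the other 5 fits with 1 library left out (limma adjusted p up to 0.848 and 0.508). The median log2 fold change of the list was 0.01.

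The death arm list held 14 caspases and other genes linked to apoptosis, and all were tested. It does not separate genes that promote death from genes that block it. In limma 1 was higher, against a share of 7.82% over all genes tested, 13 did not pass and none was lower. At an unadjusted limma p under 0.05, 3 were higher and 4 lower, against 1771 higher and 2010 lower of all 12826 genes tested. PEA15, a death effector domain protein, rose from 27, 27.7 and 27.4 FPKM in parental to 38, 38.1 and 39.5 FPKM in ARID1A-deficient libraries. The libraries of each group lay close together, and the ratio was 1.43 (log2 fold change 0.50, SE 0.08, limma adjusted p = 0.00586). CASP8, the initiator caspase of death receptors, measured 15.2, 9.59 and 14.3 FPKM in parental cells and 8.16, 7.15 and 8.98 FPKM in ARID1A-deficient cells. Its groups did not overlap, but the difference did not pass (log2 fold change -0.60, limma adjusted p = 0.0624), and it did without parental library 2 (limma adjusted p = 0.00104). Without that library the list had 3 higher and 2 lower genes, and 4079 of 12826 genes were called. CASP8 was not called in the other 5 fits with 1 library left out (limma adjusted p up to 0.204). CASP8 is named after its values were seen, and the median of the list was -0.12.

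Genes of ligand and receptor shedding were 8, all tested, with 1 higher, 7 not past the threshold and none lower in limma (0 at an unadjusted p under 0.05). Over all genes tested 7.82% were called higher. TIMP3, an inhibitor of the TNF-releasing protease ADAM17, measured 10.2, 9.70 and 10 FPKM in parental cells and 27, 26.8 and 28 FPKM in ARID1A-deficient cells. The difference was many times the spread of either group, at 2.73-fold (log2 fold change 1.36, SE 0.07, limma adjusted p = 5.75e-05). ADAM17 measured 20, 8.36 and 17.2 FPKM in parental cells and 11.4, 6.65 and 8.09 FPKM in ARID1A-deficient cells, with parental library 2 among the ARID1A-deficient values (limma adjusted p = 0.220). The groups of ADAM10 overlapped too, at 32.2, 12.1 and 24.1 FPKM against 19.7, 13.3 and 16.2 FPKM (limma adjusted p = 0.543). Without parental library 2, ADAM17 and ADAM10 were lower (limma adjusted p = 0.0100 and 0.0196), in a fit that called 4079 of 12826 genes. Neither was called in the other 5 fits with 1 library left out (limma adjusted p up to 0.480 and 0.912). These 2 genes are named after their values were seen.

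Of 6 listed genes whose symbols begin with TNFAIP (TNF-induced), 4 were tested, 2 fell and none was higher in limma (0 at an unadjusted p under 0.05). Membership rests on the symbol alone, and TNFAIP8L1 and TNFAIP8L3 are TNFAIP8-like genes. Over all genes tested 8.11% were called lower. TNFAIP3 was placed in the adaptor list. Its groups overlapped, at 1.12 ± 0.288 and 1.54 ± 0.251 FPKM (SD, n = 3 each, limma adjusted p = 0.248). TNFAIP2 measured 50.7, 44.7 and 46.7 FPKM in parental cells and 3.6, 3.8 and 4.41 FPKM in ARID1A-deficient cells, a 12-fold difference of means with no overlap (limma adjusted p = 6.95e-06). TNFAIP8, a regulator of apoptosis, measured 6.91, 6.72 and 7.57 FPKM against 5.70, 4.12 and 4.15 FPKM (log2 fold change -0.52, limma adjusted p = 0.0384). Its groups did not overlap, but the call was lost when parental library 1, parental library 3, ARID1A-deficient library 2 or ARID1A-deficient library 3 was left out (limma adjusted p up to 0.153). That leaves 1 gene lower in the list.

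**Figure D4:**
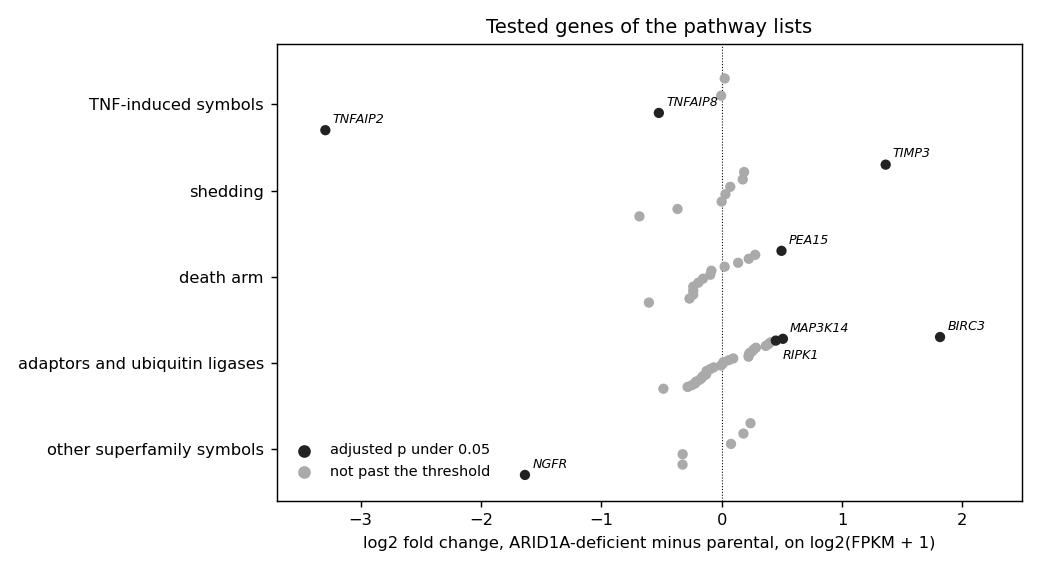
Log2 fold change (ARID1A-deficient minus parental, on log2(FPKM + 1)) of each tested gene in the 5 pathway lists; each point is 1 gene, dark where limma gave an adjusted p under 0.05 and grey otherwise. TNFAIP2 at -3.29 and BIRC3 at 1.82 lie farthest from 0 on either side.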

How the data were processed

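Messenger RNA of 3 parental and 3 ARID1A-deficient samples was captured by poly(A) selection without strand information, from 500 ng RNA per the labels' protocols. The authors deposited FPKM values, 1 table of 23273 rows per library. The submitters' processing notes name the build GRCh37 and the tools Cuffdiff 2.2.1.5, Cuffnorm 2.2.1.2 and TopHat2 2.1.1. Which annotation and scaling served is not given in these sources. In 28 rows the symbol was a calendar date, and these were left out. Groups and replicate numbers come from the titles. limma 3.58.1 (R 4.3.3), with trend and robust moderation, was fitted across all genes on log2(FPKM + 1), for the 12826 genes that averaged at least 0.5 FPKM. P-values are two-sided and Benjamini-Hochberg adjusted over all genes tested. The procedure was tested on simulated data. Alternatives were a pseudocount of 0.1, no filter, a minimum of 3 FPKM, 2 scalings, limma without trend, a replicate block and each library left out with the same genes tested. Neighbours are the 20 nearest tested genes per side in RefSeq's order, and gene overlaps come from GENCODE; both are of GRCh38, so coordinates are given only for RefSeq's start regions. Members and lists were chosen with earlier results of these data known. The text names every member, every called gene of the pathway lists (at most 6 per list) and ARID1A. Other genes serve as examples.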

Additional observations from a re-analysis of the deposited data

How the results depend on the processing

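Depth limits the members under 0.5 FPKM, where 1 fragment can decide whether a value is 0. Leaving out 1 library at a time gave 531 to 1982 genes higher and 433 to 2097 lower, most without parental library 2 and fewest of each without ARID1A-deficient library 3. It gave 0 to 1 members lower, 1 to 5 adaptor genes higher and 0 to 1 lower, 1 to 3 death arm genes higher and 0 to 2 lower, 0 to 2 shedding genes lower and 1 to 2 TNF-induced genes lower. With a minimum of 3 FPKM, 667 genes were higher. With no filter, 6 members were higher and 0 lower. In the TNF-induced list 1 gene, the TNFAIP8-like TNFAIP8L3, was then higher (limma adjusted p = 0.0356). Without trend and robust moderation 0 members were lower. With quantile normalization 0 members, 2 other superfamily genes, 1 adaptor gene and 2 death arm genes were lower, and 2 death arm genes were higher. TNFSF10 and TNFRSF19 kept their direction and call under every alternative that tested them, with log2 fold changes of 1.87 to 2.01 and 0.94 to 3.02. The causes of these changes were not tested.

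Same-numbered libraries of the groups deviated together for numbers 1 and 2 (r = 0.22 and 0.22 across genes) but not for number 3 (r = -0.01), so the numbers were not taken to pair the samples, and not every library correlated best with its own number. With the replicate number as a block, 1861 genes were higher and 2188 lower. The block gave 2 members lower, 3 other superfamily genes lower, 7 adaptor genes higher and 2 lower, 2 death arm genes higher and 1 lower, and 1 shedding gene lower. TNFRSF25 (limma adjusted p = 0.0123) and TNFSF13 (limma adjusted p = 0.00673) passed only with this block or, for TNFRSF25, without parental library 2.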
